A study of Homo sapiens with 16 samples.

Results

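Both enzyme digests were compared as one with both kinds of culture that received no enzymes, in undifferentiated Caco-2 cells, an established human colon carcinoma line that grows as an intestinal epithelium. The members are all 16 arrays of the series, chosen by their labels. The 8 arrays of the digest arm held 4 cultures given PT-G, gliadin digested with pepsin and trypsin, and 4 given PT, the same enzyme mixture prepared without a substrate. The 8 arrays of the other arm held 4 cultures kept in medium (MED-CTL) and 4 given the synthetic gliadin peptide p31-43 at 150 µg/ml. All stimulations lasted 6 h in MEM with 1% fetal calf serum. The enzymes of the digests had been inactivated by heat, and the study found no endotoxin in PT-G. A result of that test for PT is not given in the sources used here, nor are the concentrations of the digests. Every culture, with or without a digest, was lifted from its flask with trypsin-EDTA before the RNA was extracted. The comparison asks what the cells show when enzyme material is present, whether gliadin had been digested in it or not.

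Each of 4 runs held 1 array of every condition, so that the comparison lies within runs. The 4 experiments were performed on cells of different passages of 1 line. The model removed differences in level between runs, and p-values rest on the spread left between single arrays, with 11 residual degrees of freedom for a complete probe. Both arrays of an arm within a run were counted as separate replicates. The p-values therefore do not measure the spread of the effect over the 4 experiments alone. Expression is given as the deposited log2 intensity of a probe, and a change as the mean over the digest arm minus the mean over the arm without enzymes, with the run as a block in a limma model. A probe was called at a Benjamini-Hochberg adjusted p under 0.05 over all 40982 probes tested. A gene was represented by its brightest probe.

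The array median intensity ranged from 153 to 380.5 in the arm without enzymes and from 198 to 410 in the digest arm, and 24813 probes were well above background on all 16 arrays. PT replicate 3 differed from the other arrays of run 3. After each probe was centred on its run, the first principal component, with 40.9% of the variance, placed PT replicate 3 at 76.4, against −47.1 for MED-CTL, −32.9 for PT-G and 3.59 for p31-43 of the same run. PT replicate 3 lay on slide 5 with p31-43 replicate 4, a slide that held no other array of the series, while the other 3 arrays of run 3 lay on slide 3. Because of the centring, these places are relative to run 3 and do not tell which of its arrays deviate. For 92 genes described below, chosen after their values were seen, the slide 3 arrays had a lower mean than all arrays of other runs. PT replicate 3 lay within the range of those runs. The second component, with 24.2% of the variance, separated the arms, with 5.92 to 25.3 for the digest arrays and −24.7 to −7.34 for the others. All 8 epithelial markers, among them VIL1, EPCAM and CDH1, were well above background on all arrays. Their mean log2 intensity was 13.55 to 13.96 in the digest arm and 13.58 to 13.99 in the other. Of these, KRT20 rose by 0.51 and CDX2 fell by 0.69 (limma, adjusted p = 4.02e-05 and 0.00116). The mean of 7 fibroblast markers was 8.10 to 8.66 and 8.05 to 8.55, with PDGFRB 0.45 higher and COL3A1 0.45 lower. That of 6 leukocyte markers was 7.24 to 7.52 and 7.24 to 7.60, with no member called or at an unadjusted p under 0.05 in limma. On all 16 arrays, 5 of the fibroblast and 3 of the leukocyte markers were well above background. On no array were 1 fibroblast marker and 2 leukocyte markers, PTPRC among them, well above background. In whole cultures, fewer cells of a type and less RNA per cell cannot be told apart.

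**Figure D1:**
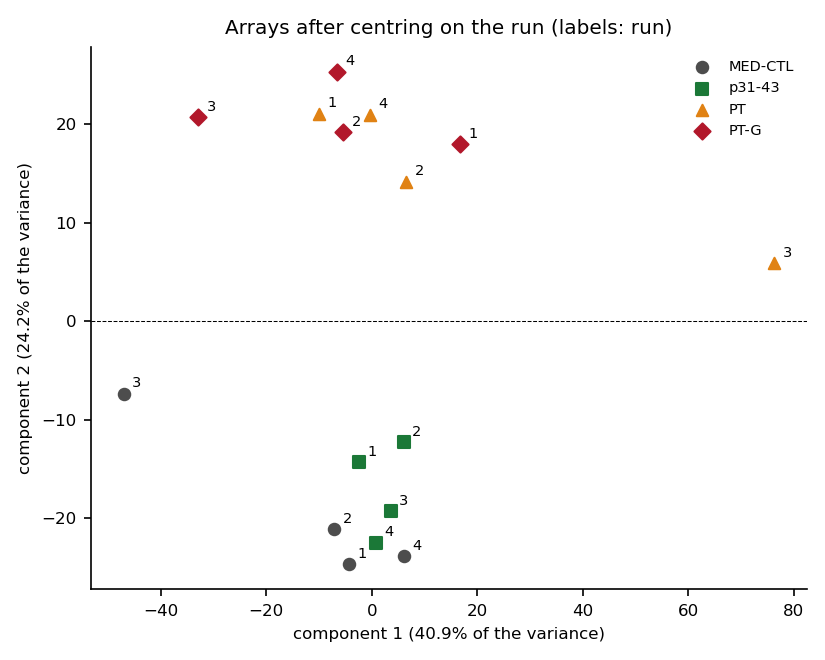
The 16 arrays are plotted by their first (x) and second (y) principal components after centring each probe on its run, for probes well above background on all arrays, with colour and shape for the condition and the run number beside each point. The first axis is led by PT replicate 3 at 76.4, a place relative to the mean of its run. On the second the digest arrays lie at 5.92 and above and the others at −7.34 and below.

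Immediate early genes are transcribed within minutes of a growth signal because their activators are already present in the cell. When a receptor activates RAS and the kinase ERK, transcription factors such as SRF and the ETS proteins switch on genes of the EGR, FOS, JUN and NR4A families. ERK also induces its own brakes, the DUSP phosphatases and the Sprouty and SPRED proteins, and growth factors such as HBEGF, which act on the EGF receptor of the same or neighbouring cells. In intestinal epithelium, the proteinase-activated receptors F2R and F2RL1 are opened by the cut of a serine proteinase and are among the receptors that feed this cascade.

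The promoter windows of 5 genes of these groups and of the heat shock gene HSPA6 are printed for the response elements they hold. A window is RefSeq sequence of GRCh38.p14 from 250 bases before to 50 bases after the transcription start, on the strand of the gene. Capitals mark the element searched for. DUSP1, DUSP8 and MAFF hold the cyclic AMP response element (CRE) TGACGTCA, EGR4 an NF-kB site, NAB2 an EGR site (GCGGGGGCG or GCGTGGGCG), and HSPA6 the AP-1 site TGAGTCA at 2 places. Each element was searched on both strands, and none of these spellings contains another.
EGR4, chr2:73293499-73293798, minus strand: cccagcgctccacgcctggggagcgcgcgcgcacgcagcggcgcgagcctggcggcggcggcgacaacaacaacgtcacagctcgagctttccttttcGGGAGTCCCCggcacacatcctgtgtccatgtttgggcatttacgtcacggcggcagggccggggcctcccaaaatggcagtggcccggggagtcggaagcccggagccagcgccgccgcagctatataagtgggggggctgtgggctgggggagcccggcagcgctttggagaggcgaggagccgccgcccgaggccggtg
MAFF, chr22:38201744-38202043, plus strand: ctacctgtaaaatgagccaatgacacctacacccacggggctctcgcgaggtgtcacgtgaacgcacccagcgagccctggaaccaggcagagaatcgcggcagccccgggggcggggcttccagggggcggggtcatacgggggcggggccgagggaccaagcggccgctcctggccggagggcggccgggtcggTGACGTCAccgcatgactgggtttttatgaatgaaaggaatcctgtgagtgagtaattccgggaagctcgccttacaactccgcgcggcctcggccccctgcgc
DUSP1, chr5:172771146-172771445, minus strand: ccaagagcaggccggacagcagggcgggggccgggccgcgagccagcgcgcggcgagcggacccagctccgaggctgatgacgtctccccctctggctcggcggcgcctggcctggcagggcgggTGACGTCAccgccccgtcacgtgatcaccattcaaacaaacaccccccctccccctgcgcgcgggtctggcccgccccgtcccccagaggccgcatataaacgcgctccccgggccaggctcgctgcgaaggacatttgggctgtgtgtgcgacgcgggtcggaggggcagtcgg
DUSP8, chr11:1572222-1572521, minus strand: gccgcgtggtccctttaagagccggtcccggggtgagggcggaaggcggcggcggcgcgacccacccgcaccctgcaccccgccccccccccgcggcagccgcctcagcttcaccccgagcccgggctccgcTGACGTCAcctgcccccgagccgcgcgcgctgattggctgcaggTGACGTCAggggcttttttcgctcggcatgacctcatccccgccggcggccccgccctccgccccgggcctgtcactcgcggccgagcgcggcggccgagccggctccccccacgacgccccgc
NAB2, chr12:57088864-57089163, plus strand: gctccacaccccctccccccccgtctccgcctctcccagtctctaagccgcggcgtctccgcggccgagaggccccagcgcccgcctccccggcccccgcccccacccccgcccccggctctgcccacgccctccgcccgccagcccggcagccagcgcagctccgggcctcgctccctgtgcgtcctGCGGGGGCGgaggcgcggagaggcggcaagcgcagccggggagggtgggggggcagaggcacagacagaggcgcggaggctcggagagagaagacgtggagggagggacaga
HSPA6, chr1:161524290-161524589, plus strand: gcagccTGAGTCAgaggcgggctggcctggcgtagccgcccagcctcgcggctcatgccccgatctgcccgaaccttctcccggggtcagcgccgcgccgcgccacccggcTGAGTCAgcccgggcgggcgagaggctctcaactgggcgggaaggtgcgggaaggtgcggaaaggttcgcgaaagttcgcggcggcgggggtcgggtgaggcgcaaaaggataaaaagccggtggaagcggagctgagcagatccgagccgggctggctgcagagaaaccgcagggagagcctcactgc

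The digests changed many probes by small amounts and few by large ones. Of the 40982 probes, 5267 were called between the arms, 2305 of them higher and 2962 lower with the digests, which is 12.9% of those tested. Their median absolute change was 0.35, and 98.9% of them had the same sign in all 4 runs, against 33.2% of all probes. The call was made on these same runs and favours an even sign, so this agreement is no separate support. Only 86 of the called probes (0.21%) changed by more than 1 on the log2 scale, 68 of them higher and 18 lower. Among the 17517 named genes, 2905 were called (16.6%), of which 1338 were higher (7.64%) and 1567 lower (8.95%). The changes over 1 fell the other way, with 49 genes higher and 13 lower, which is 0.354% of the named genes. The 8 digest arrays and the 8 others did not overlap for 585 probes (1.43%). Within each of the 4 runs, both digest arrays lay on one side of both other arrays for 2869 probes (7%). The count between the arms depended on the runs entered. It was 6196 with the first 2 runs only, 369 with the last 2 only, and 1714 without the run as a block.

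**Figure D2:**
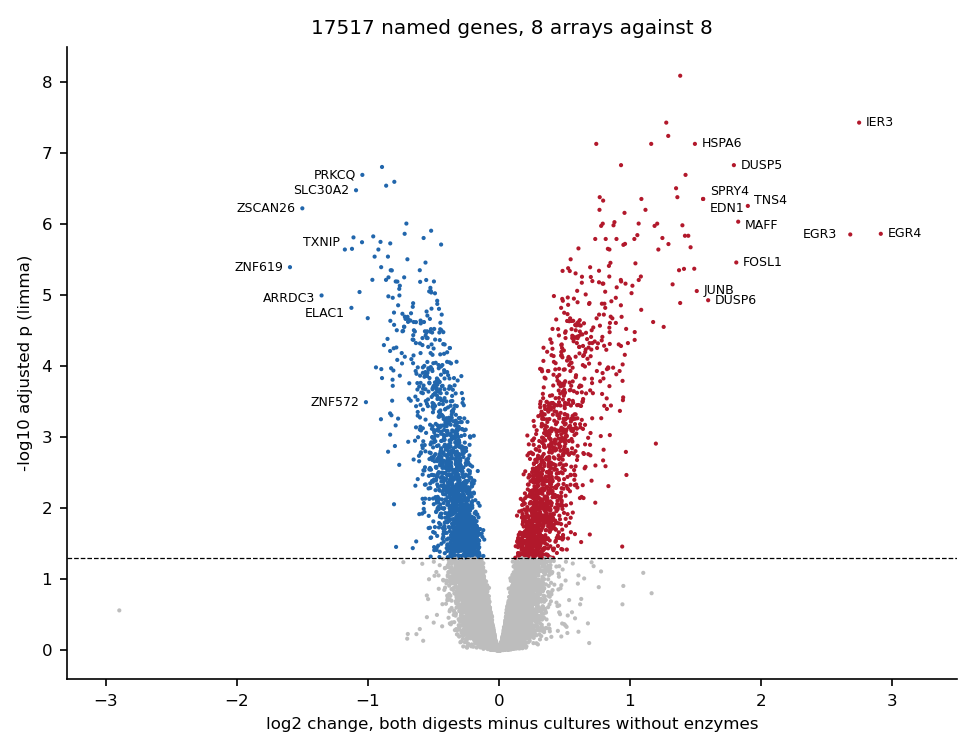
Each point is one of 17517 named genes, with the log2 change of the digest arm against the arm without enzymes on the x axis and −log10 of limma's adjusted p on the y axis, red for genes called higher, blue for genes called lower and grey for the rest (dashed line, adjusted p of 0.05). Among genes called, the rises reach 2.92 (EGR4) and the falls −1.59 (ZNF619), while the grey point farthest to the left is PRDM10-DT at −2.90 (limma, adjusted p = 0.274).

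Most of the immediate early transcription factors listed rose. The gene lists here and below were chosen with earlier results of these data known. A share of calls above that of all named genes is therefore a description and no separate support. Of the 29 measured, 23 were called higher and none lower, where 7.64% of all named genes were called higher, and the median change over the list was 0.94, against −0.00 over all named genes. The arms did not overlap for 14 of the 29, against 2.12% of all named genes. At an unadjusted p under 0.05, limma placed 27 of the 29 higher and still none lower. EGR4, a zinc finger factor of the EGR family, ranged from 7.61 to 10.09 (median 8.35) on the 8 arrays without enzymes and from 10.80 to 12.13 (median 11.56) on the 8 digest arrays. The lowest digest array thus lay above the highest array without enzymes. The change was 2.92 (SE 0.21, limma, adjusted p = 1.37e-06), 7.56-fold in linear terms, and was 3.38, 1.99, 2.68 and 3.61 within runs 1 to 4. IER3, a regulator of cell survival induced by growth factors, ranged from 11.10 to 12.18 (median 11.81) without enzymes and from 14.17 to 14.78 (median 14.34) with them. Its arms lay almost 2 log2 units apart at their nearest, and the change was 2.75 (SE 0.12, limma, adjusted p = 3.73e-08). EGR3 ranged from 6.09 to 7.39 (median 6.61) and from 8.69 to 10.19 (median 9.29). It rose by 2.68 (SE 0.19, limma, adjusted p = 1.4e-06) although 1 of the 8 arrays without enzymes was not well above background, and by 4.20 when the background-subtracted signal was used.

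The members called included leucine zipper factors and nuclear receptors. FOSL1, a FOS family member that lacks the activation domain of FOS, rose from a median of 8.12 (7.58 to 9.10) to 10.08 (9.51 to 10.65), with no overlap, by 1.81 (SE 0.15, limma, adjusted p = 3.47e-06). Its other probe rose by 1.54. JUNB, a JUN family member, had arms of 12.71 to 14.13 and 14.39 to 15.12 and rose by 1.51 (SE 0.14, limma, adjusted p = 8.75e-06). MAFF, a small MAF factor that pairs with other leucine zipper proteins, had arms of 9.0 to 10.57 and 11.02 to 12.11 and rose by 1.83 (SE 0.12, limma, adjusted p = 9.25e-07). The nuclear receptors NR4A3 and NR4A1 rose by 1.49 and 1.40, the repressor BHLHE40 by 1.36, ATF3 by 1.04 and the EGR corepressor NAB2 by 1.04 (limma, adjusted p between 4.18e-07 and 3.31e-05). MYC rose by 0.93 and JUN by 0.84.

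Some of the best known immediate early genes were not called. EGR1 ranged from 13.38 to 15.92 (median 14.41) on the arrays without enzymes and from 14.18 to 16.40 (median 14.95) on the digest arrays, which overlap over most of their range. Its change was 0.62 (SE 0.30, limma, adjusted p = 0.225), and within the runs it was 1.3, 0.59, −0.03 and 0.62. FOS changed by 0.65 and FOSB by 0.78 (limma, adjusted p = 0.0973 and 0.0775). SRF changed by 0.18 (SE 0.10, limma, adjusted p = 0.325). Without PT replicate 3, 27 of the 29 were called, and with background-subtracted signals 21.

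**Figure D3:**
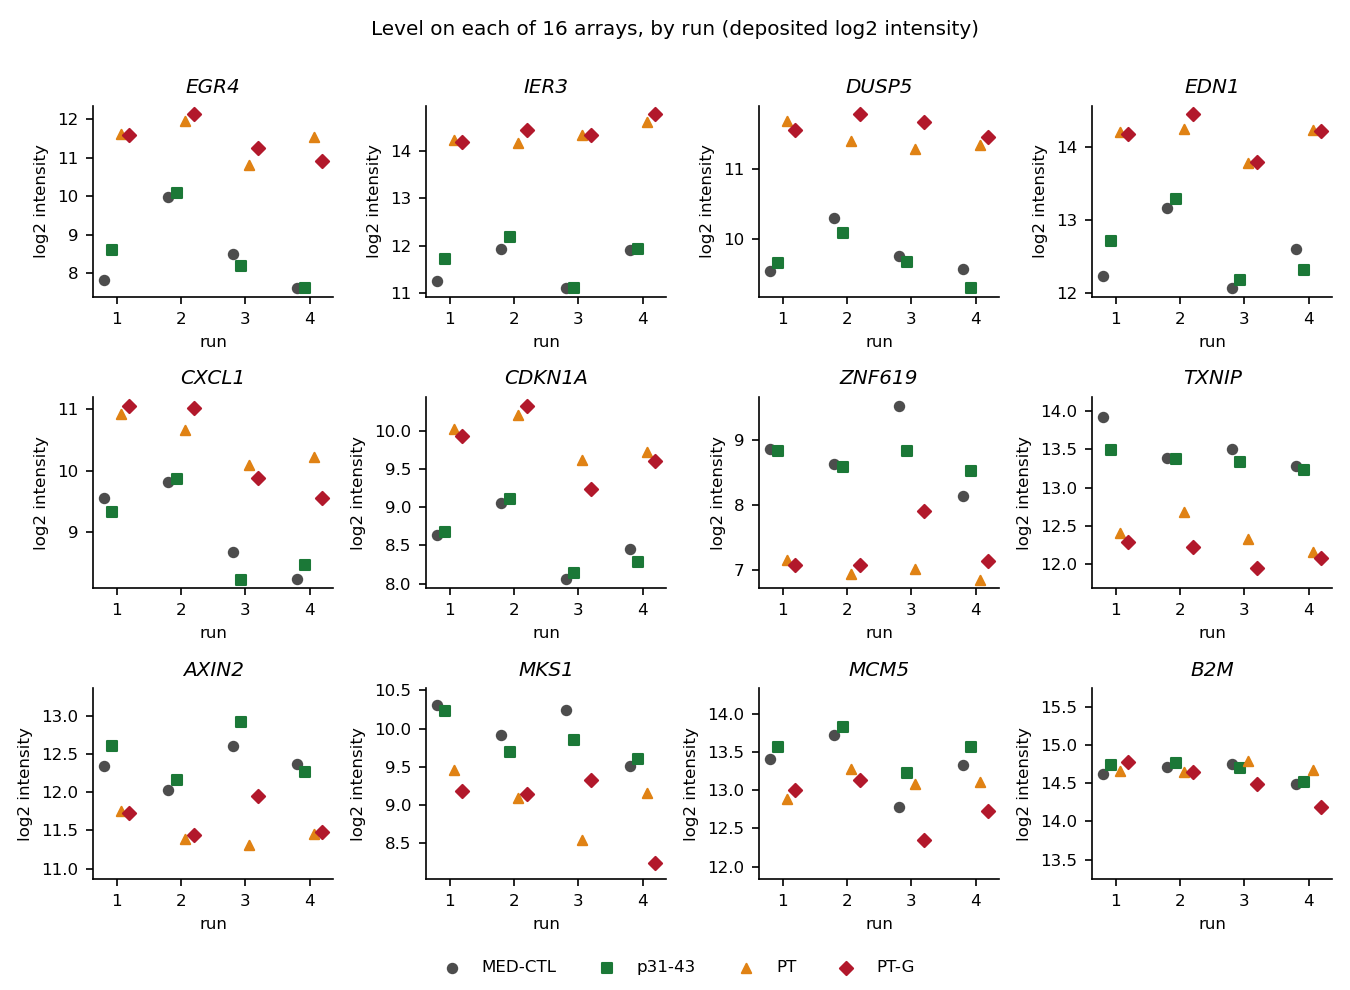
The log2 intensity of 12 genes (y axes) is plotted on each of the 16 arrays against the run (x axes), with colour and shape for the condition. For the genes from EGR4 to CDKN1A both digests lie above both cultures without enzymes in every run and for ZNF619 to MKS1 below them, while the reference gene B2M changed by −0.05 (limma, adjusted p = 0.727).

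The inhibitors that act back on RAS-ERK signalling rose together with them. Of 19 measured, 17 were called higher (89.5%, against 7.64% of all named genes) and none lower, with a median change of 0.85. An unadjusted p under 0.05 was reached by 18, all higher, and 18 were called without PT replicate 3. DUSP5, a nuclear phosphatase specific for ERK, ranged from 9.29 to 10.30 (median 9.66) without enzymes and from 11.29 to 11.79 (median 11.52) with the digests. The arms were about 1 log2 unit apart at their nearest, and the change was 1.80 (SE 0.10, limma, adjusted p = 1.48e-07). DUSP6, its cytoplasmic counterpart, had arms of 11.66 to 12.97 and 13.60 to 14.12 and rose by 1.60 (SE 0.15, limma, adjusted p = 1.18e-05). SPRY4, a Sprouty protein that blocks the cascade below receptor tyrosine kinases, had arms of 8.5 to 9.54 and 10.40 to 10.80 and rose by 1.56 (SE 0.10, limma, adjusted p = 4.43e-07). RGS16 and RGS2, which shorten signalling by G protein-coupled receptors, rose by 1.43 and 1.26, the pseudokinase TRIB1 by 1.25 and ERRFI1, an inhibitor of the EGF receptor, by 1.07 (limma, adjusted p between 2.03e-07 and 2.8e-05). SPRY2, SPRY1, DUSP1 and DUSP4 rose by 0.84 to 0.95. The members not called were DUSP14, at 0.34, and DUSP7, at −0.01 (limma, adjusted p = 0.0802 and 0.943).

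Upstream of the cascade, 3 of 12 EGF receptor ligands and receptors were called higher and none lower, and the list median was −0.06. The 3 were the ligands HBEGF, AREG and EREG, which make 25% of the list, against 7.64% of all named genes called higher. HBEGF ranged from 9.10 to 9.72 without enzymes and from 10.14 to 10.45 with the digests, and AREG from 15.38 to 16.14 and from 16.20 to 16.79. Neither gene's arms overlapped, and the changes were 0.89 (SE 0.08) and 0.71 (SE 0.07) (limma, adjusted p = 1.09e-05 and 3.12e-05). EREG rose by 0.52 (SE 0.15, limma, adjusted p = 0.0381), a call that was lost in 21 of 41 alternatives. The ligands TGFA and NRG1 changed by −0.01 and −0.26 (limma, adjusted p = 0.967 and 0.0708), and the receptors ERBB2 and ERBB3 by −0.39 and −0.16 (limma, adjusted p = 0.185 and 0.387). Of 16 receptors, activators and inhibitors of serine proteinases, 5 were called higher and none lower, with 6 and 0 at an unadjusted p under 0.05 in limma. PLAUR, the urokinase receptor, rose by 0.81, F2RL1, the receptor that trypsin opens, by 0.60, and F2R, the thrombin receptor, by 0.50 (limma, adjusted p = 1.32e-05, 0.00132 and 0.000859). F2RL1 ranged from 10.43 to 11.67 without enzymes and from 11.12 to 12.32 with the digests, which overlap, but lay higher with both digests in each run. PLAU rose by 0.29, and TFPI2 was well above background on 4 of the 8 digest arrays and on none of the others. It read 0.37 higher with the digests (limma, adjusted p = 0.0102), but with values near background in both arms the size of its change is uncertain. The abundant inhibitors SPINT2 and SPINK1 changed by −0.05 and 0.15 (limma, adjusted p = 0.51 and 0.655).

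EDN1 and 13 of 25 NF-kB targets and chemokines were called higher. EDN1, the vasoconstrictor peptide endothelin 1, ranged from 12.06 to 13.28 (median 12.46) without enzymes and from 13.77 to 14.44 (median 14.21) with the digests, with no overlap. It rose by 1.56 (SE 0.10, limma, adjusted p = 4.43e-07). The 13 make 52% of the list, against 7.64% of all named genes called higher. None of the 25 was called lower, and their median change was 0.33. At an unadjusted p under 0.05 it was 15 and 0, and 15 were called without PT replicate 3. CXCL1, a chemokine for neutrophils, ranged from 8.22 to 9.86 and from 9.56 to 11.06 and rose by 1.42 (SE 0.12, limma, adjusted p = 4.27e-06). CCL20, a chemokine for immature dendritic cells and TH17 cells, ranged from 7.39 to 8.06 and from 8.44 to 9.44 and rose by 1.21 (SE 0.08, limma, adjusted p = 9.86e-07). CXCL1 overlapped between the arms and CCL20 did not, and in every run both lay higher with both digests. CXCL8, the neutrophil chemokine interleukin 8, was well above background on all 8 digest arrays and on none of the 8 others, so that only a bound can be given: it was at least 1.7-fold higher (limma, adjusted p = 2.69e-05). LIF, a cytokine of the interleukin 6 family, rose by 1.06. Its other probe changed by 0.12 but was dim, well above background on 1 array without enzymes and 3 digest arrays. ICAM1 rose by 0.77 and BIRC3 by 0.63. The subunit RELB changed by 0.33 and the inhibitor NFKBIA, itself a target of NF-kB, by 0.26 (limma, adjusted p = 0.0759 and 0.232).

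Of 12 regulators of mRNA decay, 6 were called higher (50%, against 7.64% of all named genes), none lower and 6 were not called. At an unadjusted p under 0.05 limma placed 8 higher and none lower. ZFP36, which binds AU-rich elements of cytokine and immediate early mRNAs, ranged from 11.28 to 12.62 (median 11.98) without enzymes and from 12.94 to 13.68 (median 13.35) with the digests. There was no overlap, and the change was 1.3 (SE 0.10, limma, adjusted p = 1.91e-06). BTG2, an antiproliferative partner of the deadenylase complex, rose by 0.93 and the endonuclease ZC3H12A by 0.87 (limma, adjusted p = 6.11e-06 and 2.12e-05). KHSRP and HNRNPD, which bind AU-rich elements as well, changed by −0.10 and −0.09 (limma, adjusted p = 0.668 and 0.641).

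Of 16 genes on the list of cell cycle inhibitors and p53 targets, 8 were called higher, 2 lower and 6 were not called. The calls make 50% and 12.5% of the list, against 7.64% and 8.95% of all named genes. CDKN1A, the kinase inhibitor p21, ranged from 8.06 to 9.11 (median 8.54) without enzymes and from 9.24 to 10.32 (median 9.82) with the digests. The arms did not overlap, and the change of 1.28 (SE 0.05, limma, adjusted p = 3.73e-08) was close to even over the runs, at 1.32, 1.18, 1.33 and 1.29. Its other probe changed by 0.48. PLK3, a stress-induced kinase, ranged from 9.90 to 11.32 and from 11.62 to 12.72 and rose by 1.45 (SE 0.10, limma, adjusted p = 1.46e-06). The 2 called lower were SESN1 and GADD45G, which fell by 0.70 and 0.33. CDKN1B, the kinase inhibitor p27, changed by −0.0036 (limma, adjusted p = 0.993). BBC3, a p53 target that promotes apoptosis, changed by 0.05 on its brightest probe (SE 0.52), but its other 2 probes rose by 0.55 and 0.35 (limma, adjusted p = 0.00406 and 0.00646). Of 31 DNA replication genes, none was called higher and 9 lower, where 8.95% of named genes were lower, and the median change was −0.20. At an unadjusted p under 0.05, limma placed 1 higher and 17 lower. The largest falls were those of POLD3, a subunit of DNA polymerase delta, by 0.58 and MCM5, a part of the replicative helicase, by 0.48 (limma, adjusted p = 0.000409 and 0.00697), and the other probe of POLD3 changed by −0.29 (limma, adjusted p = 0.152). MCM5 ranged from 12.78 to 13.82 and from 12.35 to 13.28, and its arms overlapped. Of 17 mitosis genes, 5 were called lower (29.4%, against 8.95% of all named genes) and none higher. CCNA2 led them with a fall of 0.37 (SE 0.06, limma, adjusted p = 0.00121), while CDK1 and CCNB1 changed by −0.04 and −0.10 (limma, adjusted p = 0.62 and 0.369). With array medians in place of quantiles, 5 replication genes and 1 mitosis gene were called lower, and without PT replicate 3 it was 14 and 5.

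**Figure D4:**
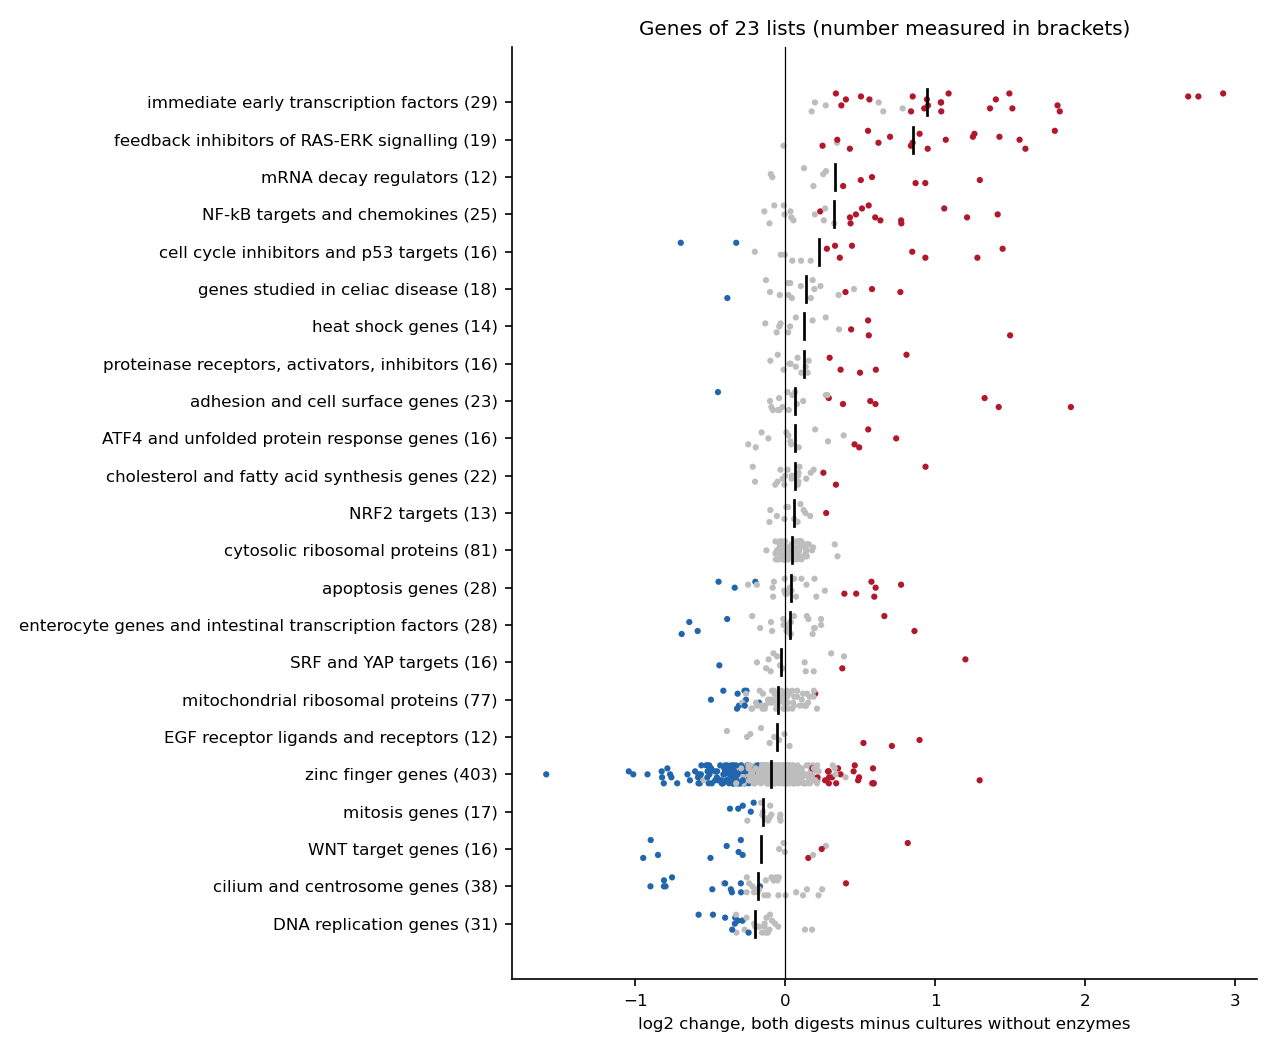
Every measured gene of 23 lists is a point at its log2 change between the arms (x axis), red when called higher, blue when called lower and grey otherwise, with a black bar at the median of each list and the number measured in brackets. The immediate early and feedback lists have medians of 0.94 and 0.85, and DNA replication, cilium and WNT genes have medians of −0.20, −0.18 and −0.16.

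Genes of adhesion and cell shape moved unevenly. TNS4, a tensin found in focal adhesions, ranged from 7.98 to 9.42 (median 8.60) without enzymes and from 10.06 to 11.24 (median 10.60) with the digests. Its arms did not overlap, and it rose by 1.90 (SE 0.12, limma, adjusted p = 5.55e-07). The ephrin receptor EPHA2 rose by 1.33 (SE 0.12, limma, adjusted p = 7.05e-06). Of 23 genes on the adhesion list, 7 were called higher and TNS1 lower (30.4% and 4.35%, against 7.64% and 8.95% of all named genes). The integrin ITGA2 rose by 0.60, and the most abundant members, ITGB1 and LAMB3, changed by −0.05 and −0.04 (limma, adjusted p = 0.774 and 0.876). Of 16 SRF and YAP targets, ANKRD1 and ZYX were called higher and AJUBA lower, which is 12.5% and 6.25% against 7.64% and 8.95% of all named genes. ZYX changed by −0.02 in run 4 and lost its call in 8 of 41 alternatives. ANKRD1 had arms of 11.63 to 13.15 and 12.80 to 14.28, which overlap, and rose by 1.20 (SE 0.20, limma, adjusted p = 0.00123). The brightest probe of ACTG1 changed by −0.02 while its other 2 probes changed by 0.28 and 0.25.

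Stress responses were selective. HSPA6, a strictly inducible HSP70, ranged from 6.53 to 7.40 (median 6.85) without enzymes and from 7.95 to 8.90 (median 8.44) with the digests. The arms did not overlap, and the change was 1.5 (SE 0.08, limma, adjusted p = 7.43e-08). The near-identical HSPA7 may share the signal of its probe, as HSPA1B may share that of HSPA1A. HSPA1A rose by 0.55, its cochaperone BAG3 by 0.56 and DNAJB1 by 0.44. With HSPA6 this makes 4 of 14 heat shock genes called higher (28.6%, against 7.64% of all named genes), and none was called lower. HSPA8 and HSPD1 changed by −0.06 and −0.03 (limma, adjusted p = 0.752 and 0.793). The other 2 probes of HSPA1A changed by 0.42 and 0.34 (limma, adjusted p = 0.079 and 0.349). Of 16 genes of the ATF4 and unfolded protein response, 4 were called higher (25%, against 7.64% of all named genes) and none lower. The 4 were PPP1R15A at 0.74, TRIB3 at 0.55, VEGFA at 0.49 and XBP1 at 0.46. ATF4 itself changed by 0.04 (limma, adjusted p = 0.804). Of 13 NRF2 targets, SRXN1 was called, at 0.27 (SE 0.06, limma, adjusted p = 0.00533). This is 7.69% of the list, against 7.64% of all named genes called higher.

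Of 16 WNT target genes, which mark the crypt of the intestine, 8 were called lower, 3 higher and 5 were not called, where 8.95% and 7.64% of all named genes were called lower and higher. ASCL2, a transcription factor of intestinal stem cells, ranged from 13.54 to 14.13 (median 13.96) without enzymes and from 12.81 to 13.11 (median 12.92) with the digests. Its arms did not overlap, and it fell by 0.95 (SE 0.07, limma, adjusted p = 2.87e-06). AXIN2, a feedback inhibitor of WNT signalling, ranged from 12.03 to 12.91 and from 11.30 to 11.95, again with no overlap, and fell by 0.85 (SE 0.09, limma, adjusted p = 4.13e-05). The receptor FZD1 fell by 0.90. Its other probe changed by −0.16 but was dim, well above background on 7 arrays without enzymes and 2 digest arrays. SOX9, a crypt transcription factor, rose by 0.82 (SE 0.15, limma, adjusted p = 0.00256). BAMBI and ZNRF3 changed by −0.0036 and 0.18 (limma, adjusted p = 0.987 and 0.611). When array medians replaced the quantiles, 6 WNT targets were called lower and 1 higher.

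Of 28 enterocyte genes and intestinal transcription factors, 2 were called higher and 4 lower. These are 7.14% and 14.3% of the list, against 7.64% and 8.95% of all named genes. KLF5, a factor of proliferating crypt cells, ranged from 12.85 to 13.45 and from 13.81 to 14.41 with no overlap and rose by 0.86 (SE 0.08, limma, adjusted p = 1.22e-05). ELF3, an epithelial ETS factor, rose by 0.66. CDX2, the homeobox factor that defines the intestine, ranged from 9.64 to 11.26 and from 8.61 to 10.71, lower with both digests in each run, and fell by 0.69 (SE 0.12, limma, adjusted p = 0.00116). CEBPA, a factor of differentiation, fell by 0.58.

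Genes of the cilium and centrosome were among those that fell. Of 38 measured, 12 were called lower and 1 higher, with a median of −0.18. The calls make 31.6% and 2.63% of the list, against 8.95% and 7.64% of all named genes. This list too was chosen with earlier results of these data known. MKS1, a protein of the ciliary transition zone, ranged from 9.51 to 10.31 (median 9.89) without enzymes and from 8.25 to 9.46 (median 9.15) with the digests. There was no overlap, and it fell by 0.90 (SE 0.14, limma, adjusted p = 0.000558). TCHP and CLUAP1 fell by 0.81 each, IFT46, a subunit of the transport particle IFT-B, by 0.80 and TUBGCP3, of the gamma-tubulin ring complex, by 0.76 (limma, adjusted p between 1.09e-05 and 0.000189). Without both arrays of slide 5, 9 of the 38 were called lower.

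The 2 largest falls among genes called were those of zinc finger genes. ZNF619, a zinc finger protein, ranged from 8.14 to 9.54 (median 8.73) without enzymes and from 6.86 to 7.92 (median 7.09) with the digests. Its arms did not overlap, and it fell by 1.59 (SE 0.13, limma, adjusted p = 4.04e-06). ZSCAN26, also a zinc finger protein, ranged from 9.41 to 9.88 and from 7.92 to 8.47 and fell by 1.5 (SE 0.10, limma, adjusted p = 6e-07). The second ZSCAN26 probe changed by −1.49. Of 403 genes named ZNF, 105 were called lower, which is 26.1% against 8.95% of all named genes, and 20 higher, which is 4.96% against 7.64%. The median change over the 403 was −0.10, and with array medians in place of quantiles 84 were called lower and 16 higher. One of the 20 was ZNF143, which rose by 1.29 on its brightest probe and changed by 0.24 on its other.

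The alpha-arrestins TXNIP and ARRDC3 fell. TXNIP, an inhibitor of thioredoxin and of glucose uptake, ranged from 13.23 to 13.92 (median 13.38) without enzymes and from 11.95 to 12.69 (median 12.26) with the digests, with no overlap. It was 2.26-fold lower with the digests (limma, adjusted p = 2.28e-06). ARRDC3 ranged from 9.46 to 11.32 and from 8.61 to 9.81, which overlap, and fell by 1.35 (SE 0.12, limma, adjusted p = 1.01e-05). Its other probe changed by −0.26 but was dim, well above background on 5 arrays without enzymes and 1 digest array. PRKCQ, a protein kinase C isoform, ranged from 7.61 to 8.07 and from 6.5 to 7.04 and fell by 1.04 (SE 0.06, limma, adjusted p = 2.03e-07), or by 1.72 on background-subtracted signals. The zinc transporter SLC30A2 fell by 1.09 and its second probe changed by −0.53. ELAC1, which processes the ends of tRNA, and ST7-AS1, a noncoding RNA, fell by 1.12 and 1.11. RBBP8NL, IRAG2, ZNF777 and ZNF572 fell by 1.01 to 1.12. Of the 12 genes with the largest falls, 8 did not overlap between the arms, against all 12 of those with the largest rises, and all 24 were separated within every run. Over all features, 2.12% of named genes did not overlap and 7% of probes were separated within every run. The 24 were picked by size and sign in these same values, so their separation is a description and no separate support.

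Classes of housekeeping genes were read against the 7.64% of all named genes called higher and the 8.95% called lower. None of 81 cytosolic ribosomal protein genes was called by limma, where 2 had an unadjusted p under 0.05, and RPS2 and RPS27 changed by 0.04 and 0.08. Of 77 mitochondrial ribosomal proteins, 1 was called higher (1.3%) and 10 lower (13%), with MRPL15 0.41 lower (SE 0.05, limma, adjusted p = 0.000149), and 4 were called lower with array medians. Of 22 cholesterol and fatty acid synthesis genes, 3 were called higher (13.6%) and none lower, among them STARD4, a sterol transport protein, at 0.34 (SE 0.07, limma, adjusted p = 0.00405).

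Several genes bear on celiac disease or were measured by the study in another assay. Of 28 apoptosis genes, 6 were called higher (21.4%) and 3 lower (10.7%), against 7.64% and 8.95% of all named genes. The death receptors TNFRSF10B and TNFRSF10A rose by 0.77 and 0.60 and BIK by 0.59, and FASTKD2 and FASTK fell by 0.45 and 0.34, while FAS and FASLG were not above background on any array. Of 18 genes studied in celiac disease, 3 were called higher (16.7%) and 1 lower (5.56%), read against the same shares of all named genes. MICB, a stress ligand of cytotoxic lymphocytes, rose by 0.77, ZFP36L1 by 0.58 and CLDN3, a tight junction protein, by 0.40 (limma, adjusted p = 1.88e-05, 0.00398 and 0.00124). TGM2, the transglutaminase that deamidates gliadin, fell by 0.39 (SE 0.09, limma, adjusted p = 0.0125), a call that was lost in 9 of 41 alternatives, and its other probe changed by −0.21 (limma, adjusted p = 0.515). The study followed 5 genes by qRT-PCR. KLF4, a factor of epithelial differentiation, ranged from 8.23 to 9.56 (median 8.52) without enzymes and from 8.54 to 10.41 (median 9.57) with the digests. It was higher with both digests in each run although the arms overlap, and rose by 0.85 (SE 0.14, limma, adjusted p = 0.000933). SPRED1, which holds RAS inactive, rose by 0.55 and CEBPA fell by 0.58 (limma, adjusted p = 0.00342 and 0.0013). UQCC2, listed on the array as MNF1, changed by 0.23 and RELA by −0.07 (limma, adjusted p = 0.632 and 0.719).

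Inside each arm, the genes that separated the arms differed little. Between PT-G and PT no probe was called (0%), and the smallest adjusted p in limma was 0.90. An unadjusted p under 0.01 was reached by 132 probes (0.322%) and one under 0.05 by 1441 (3.52%). With no difference at any probe, shares of about 0.01 and 0.05 would be reached, which is more than was seen. For the 49 genes that rose by more than 1 with the digests, PT-G minus PT ranged from −0.20 to 0.40 with a median of 0.11, and for the 13 that fell by more than 1 from −0.26 to 0.34. The 95% intervals of these differences extended 0.15 to 0.69 to either side. EGR4 differed by −0.01 between the digests (95% interval −0.70 to 0.69) and IER3 by 0.10 (−0.27 to 0.46). TNS4 was 0.39 higher with PT-G (0.10 to 0.69) and KLF4 0.44 higher (0.08 to 0.79), and neither passed the adjustment. Among named genes with an unadjusted p under 0.01, the differences of largest size were those of CD36, at −0.74, METTL27, at −0.49, GAPT, at −0.48, CLVS1, at 0.47, and HSD17B7, at −0.45 (limma, adjusted p = 0.90 each). Of these, HSD17B7, an enzyme of cholesterol and oestradiol synthesis, was well above background on all 16 arrays, and CD36 on 3. A p that misses the threshold does not show that the digests act alike.

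**Figure D5:**
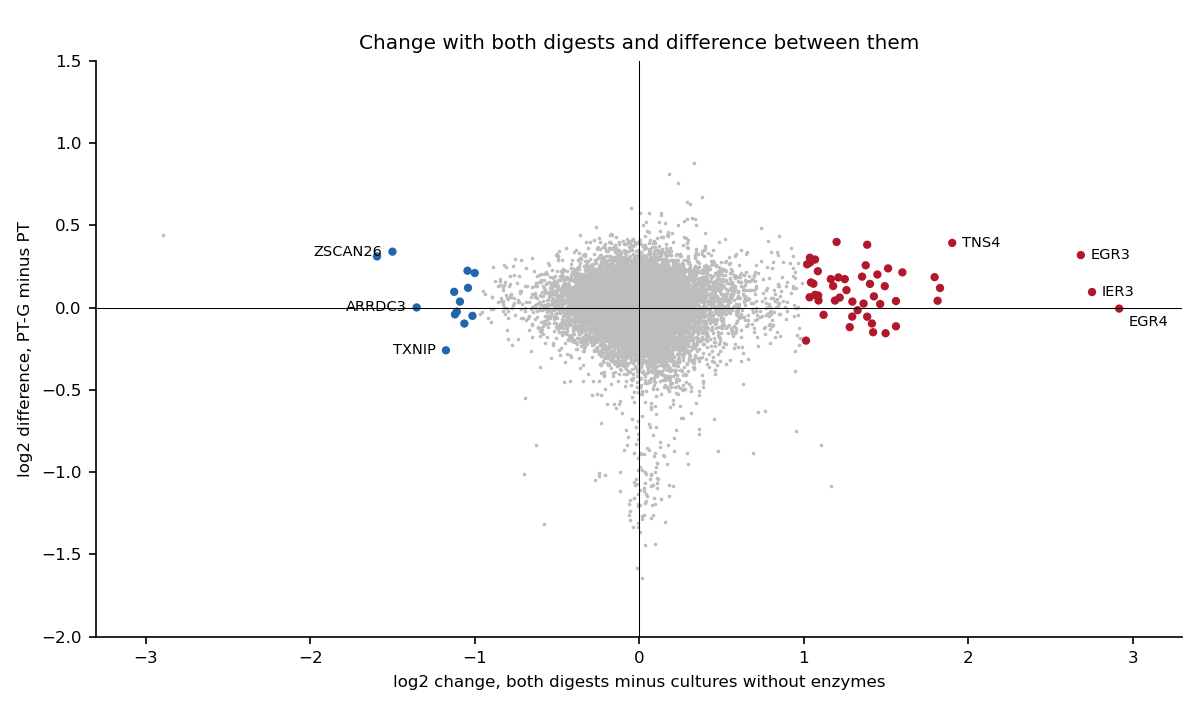
Each named gene is a point with its log2 change between the arms on the x axis and the log2 difference of PT-G minus PT on the y axis, at the same scale, with genes called and changed by more than 1 in red (higher) and blue (lower). These 62 genes extend from −1.59 to 2.92 along x and from −0.26 to 0.40 along y.

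Between p31-43 and MED-CTL no probe was called either (0%, smallest adjusted p in limma 0.447), with 567 probes at an unadjusted p under 0.01 (1.38%) and 2467 under 0.05. For the 62 genes changed by more than 1 with the digests, p31-43 minus MED-CTL ranged from −0.41 to 0.30. The largest differences among named genes with an unadjusted p under 0.01 were those of PRDM10-DT at −5.42, H4C2 at 1.70, CHRNA4 at −1.64, FTH1P12 at 1.61 and PRM3 at −1.32 (limma, adjusted p between 0.447 and 0.674). For several of these the MED-CTL arrays of runs 1 and 2 stood apart from all other arrays. PRDM10-DT, a noncoding RNA, was at 14.73 and 14.43 on these 2 arrays and at 6.28 to 8.34 on the 11 others with a value, while its other probe changed by 0.08 between the arms. FTH1P12, a pseudogene of ferritin, was at 11.53 and 11.58 there and at 14.32 to 14.73 on the others, and CHRNA4, a subunit of the nicotinic acetylcholine receptor, at 11.37 and 11.11 there and at 7.28 to 9.05 on the others. The histone gene H4C2 was at 10.76 and 10.66 there, but at 10.87 on MED-CTL of run 3 as well. UQCC2 was 0.93 higher with the peptide (95% interval 0.44 to 1.42). The study's qRT-PCR did not find this rise, with a level comparable to that of untreated cells. On the arrays, UQCC2 was at 11.84 against 13.48 in run 1 and 12.18 against 13.61 in run 2 for MED-CTL against p31-43. It was at 12.71 against 12.89 in run 3 and 13.08 against 13.54 in run 4. Both differences are independent of the comparison between the arms in this balanced design. A group of 92 genes, chosen after their values were seen for a PT-G minus PT under −0.8 and a change between the arms under 0.6, had a mean log2 intensity of 10.40, 11.62 and 10.18 on the arrays MED-CTL, p31-43 and PT-G of run 3, all on slide 3. On PT replicate 3 it was 14.77, and in the other runs between 12.96 and 15.32. None of the 92 had an unadjusted p under 0.01. ZNF579 changed by 0.02 between the arms with an SE of 0.60.

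The effect of the digests was also compared between the 4 runs. Of 40970 probes with values in each cell, 1 was called (0.00244%) and 190 had an unadjusted p under 0.01 (0.464%). The 1 was a probe of TTLL7, well above background on 4 of the 8 arrays without enzymes and 1 of the 8 digest arrays. The next named genes by their brightest probe were PCDHAC2, GH2, DNAH5 and SFTPB, at unadjusted p between 0.000175 and 0.000308 and adjusted p of 1 in limma.

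The promoter windows can be set beside the changes as a description. Of the 39 immediate early and feedback genes with a window, 4 held the CRE (10.3%), namely DUSP1, DUSP8, JUND and MAFF, against 1.98% of all 27305 RefSeq promoters and 2.75% of the 13811 named genes of the array with a window. An EGR site stood in 7 (17.9%, against 5.7% and 8.17%). A CArG box, the site of SRF, stood in 2 (5.13%, against 1.29% and 1.22%), those of EGR1 and SRF, and neither gene was called. An NF-kB site stood in 2 (5.13%, against 5.72% and 6.55%) and an AP-1 site in 1 (2.56%, against 4.92% and 3.54%). Among all genes called higher, 1035 had a window. Of these, 13% held an EGR site, 9.66% an NF-kB site, 3.77% a CRE and 1.16% a CArG box. Among 1280 called lower the shares were 7.5%, 5.47%, 2.66% and 0.547%. CRE, NF-kB and AP-1 elements stood in 1 each of the 7 windows found for the 12 genes with the largest rise, those of MAFF, EGR4 and HSPA6 printed above, and in none of the 7 found for the 12 with the largest fall. GC-rich elements depend on the base composition of a promoter, which was not compared. A match is a description of these letters and not a site or a cause.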

How the data were processed

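Total RNA of 16 Caco-2 cultures was hybridised to 16 single-colour Agilent arrays, 1 culture each. The authors' image analysis gave the linear intensity of each spot, as foreground and local background. The authors also deposited log2 values, used here, which lie within 5e-09 of the log2 median foreground intensity after quantile normalization with no correction for background. Quantile normalization gives all arrays the same distribution, so that a shift of all genes in one direction would not be seen. Depth is here the signal over background. The precision of a value is set by how many arrays stand behind it.

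An array holds 45015 spots. The 1639 controls were dropped, as were 1774 spots (0.256% of all) marked as outliers, and the rest averaged per probe. A probe needed at least 3 unmarked arrays in each condition, which removed 18 of 41000. The other 40982 were fitted with limma 3.58.1 in R 4.3.3, with the arm and the run (4 levels) as terms and moderated 2-sided tests. The study used a linear model with moderated tests and a nominal p under 0.01, and whether it had a block is not given in the sources used here. PT-G against PT and p31-43 against MED-CTL were taken from a model of 4 conditions and run, and the effect between runs from a moderated F test. The run was read from a code that the names of its arrays share, and the slide from the barcode in these names. Slide 5 held arrays of runs 3 and 4. Runs carry the replicate number of the labels except that MED-CTL replicates 1 and 2 exchange places. Deviations from the condition means of arrays of the same run had a median correlation of 0.686 over 24 pairs (−0.03 to 0.888). Pairs of the same replicate number gave 0.621 over the same range, so these values hardly tell the groupings apart. The calculations were tested on simulated data.

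Current symbols came from RefSeq through the accession of the probe (23428 of 24857 matched) or the array's name. This named 26785 probes of 17517 genes, while 14197 probes have no name here. The symbol differs from the array's name for 6009 probes. A gene was taken by its probe of highest mean level.

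The members and the gene lists were chosen with earlier results of these data known. Named are the 12 genes with the largest rise and the 12 with the largest fall among those called, of the same sign in all 4 runs and well above background on every array of the higher arm, up to 4 called and 2 uncalled members of each list, the genes with the largest differences inside the arms and between runs, and the genes the study measured by qRT-PCR. Genes named beside these were chosen after their values were seen. Some list members are not reported here by name. Lists are described by counts and medians, with no set test. Alternatives changed the input signal, background correction, normalization, handling of spots, spread, block, arms, runs and threshold, and left out each array in turn. Leaving out both arrays of slide 5, and the counts of the lists under alternatives, were added after seeing the data. Figures were drawn with matplotlib 3.10.9.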

Additional observations from a re-analysis of the deposited data

Results flagged for a closer look

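In the 48 arms of the 24 genes with the largest changes, 5 arrays lay far from the other 7 of their arm by Dixon's test, where chance flags about 1 in 20. In the digest arm, PT-G replicate 3 was high for ZNF619 at 7.92 (nearest array 7.16), for ELAC1 at 9.77 (nearest 9.24) and for ZNF777 at 13.36 (nearest 12.88). In the arm without enzymes, MED-CTL replicate 2 was high for TXNIP at 13.92 (nearest 13.51) and MED-CTL replicate 3 for ELAC1 at 11.07 (nearest 10.38). PT-G replicate 3 and MED-CTL replicate 3 lay on slide 3.

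The effect of the digests differed between runs for 1 probe of TTLL7, a tubulin-modifying enzyme, with 0.0283, 0.134, 0.0454 and −2.10 in runs 1 to 4 (limma, moderated F test, adjusted p = 0.0248). The other probe of TTLL7 changed by −0.03 between the arms.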

How the results depend on the processing

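The 24 genes with the largest changes kept their direction in all of 984 refitted values and their call in 982, the exceptions being ELAC1 and ZNF572 with the last 2 runs only (limma, adjusted p = 0.0776 and 0.168). Of 3935 refitted values for 96 genes called and followed, none changed sign and 204 lost the call, most often EREG, MRPL58 and CENPF, and 54 of these were lost with the last 2 runs only. Of 49 other probes of 40 of these genes, 33 were called in the same direction and 16 were not called. The number of probes called between the arms, 5267, became 8578 with array weights, 1714 without the run as a block, 2821 without the p31-43 arrays, 2456 without the PT-G arrays, 2677 without run 1, 2795 without run 2 and 369 with the last 2 runs only. It stayed within 1.5 times under the other alternatives, at 3536 with array medians, 6225 when the slide replaced the run and 5350 without slide 5 arrays. Leaving out 1 array gave 4277 (without PT-G replicate 1) to 6259 (without PT replicate 3). The share of higher calls was 43.7% to 47% over the scalings, against 43.8%, and the median over all probes moved to at most 0.05.

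With the replicate number as a block in place of the run, 4471 probes were called between the arms, and 2 of the 96 genes lost their call. PT-G against PT gave 0 probes under every alternative at an adjusted p, 0 to 0 when 1 array was left out, and 132 at the nominal p. For p31-43 against MED-CTL it was 12 with array weights, 567 at the nominal p, 0 to 0 when 1 array was left out, and 0 under the other alternatives. Probes whose effect differed between runs, 1 here, numbered 3 with processed signals, 0 with array medians, 0 with the filter on dim probes, 2 with array weights, 2 with an intensity trend, 190 at the nominal p, 98 without slide 5, and 0 to 95 when 1 array was left out, the last without PT-G replicate 4. The cause of these shifts was not tested. Signal over background limits CXCL8, TFPI2, EGR3 and PRKCQ, which were not well above background on all arrays.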

Other observations

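Genes outside the lists also changed by more than 1, and those named here were chosen after their values were seen. Receptors and ligands were among them. SSTR2, a somatostatin receptor, rose by 1.47, the chemokine receptor CXCR4 by 1.04, the NOTCH ligand JAG1 by 1.02, the stress cytokine GDF15 by 1.22, the neurotrophin BDNF by 1.19 and the cytokine IL11 by 1.09 (limma, adjusted p between 1.06e-06 and 7.37e-06). The arms overlapped for BDNF and CXCR4 and not for the others.

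Small GTPases of the RGK family, which inhibit calcium channels, rose as well, GEM by 1.38 and RRAD by 1.18 (limma, adjusted p = 4.46e-06 and 2.39e-05). MAP3K8, a kinase above MEK and ERK, rose by 1.07, and NR1D1, a nuclear receptor of the circadian clock, by 1.35. The smallest adjusted p of the comparison, 8.16e-09 in limma, was that of TMEM151A, which rose by 1.39 (SE 0.05) with no overlap between the arms. DOK7, an adaptor of the receptor kinase MuSK, rose by 1.17.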
